A study of Mus musculus with 6 samples.

Results

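The genes described here encode the proteins that give the endoplasmic reticulum (ER) its shape, a network of tubules and flat sheets. They are the reticulons Rtn1, Rtn3 and Rtn4, the receptor expression-enhancing proteins Reep1, Reep2 and Reep5, the atlastins Atl1 and Atl3, and the membrane proteins Ckap4 and Arl6ip1. Probe sets whose platform annotation gave 1 of these symbols and no other were taken, which found 25 of the array's 45101 probe sets, for 9 of the 10 genes; 10050 genes in all had a probe set above the filter described below. No probe set carried the symbol Arl6ip1 alone in the annotation used here, and this gene was not analysed here.

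Messenger RNA of mouse neural stem cells was read on 6 Affymetrix arrays in a series on how age is passed on when such cells divide. The young group had 3 arrays, of cells taken at an age of 6 weeks, and the old group 3, taken at 9 months, all of the strain C57BL/6JRj, and the labels name no mutant allele or treatment in either group. The labels do not say whether the cells were cultured or freshly isolated, or whether replicates came from separate animals, so a p-value here stands for the spread among these arrays alone, and that spread may be technical.

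Reticulons and the REEP family push hairpins into the outer leaflet of the ER membrane and so bend it into tubules and sheet edges. Atlastins are GTPases that fuse tubules into a branched network, and Ckap4, also called CLIMP-63, spaces the membranes of sheets with its coiled coil. Mutations in ATL1 and REEP1 cause hereditary spastic paraplegia in people, a disease of long axons, and Rtn4, known as Nogo, also acts at the cell surface as an inhibitor of axon growth.

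The starts of the 3 reticulon genes are shown because the results below set these paralogs side by side. RefSeq promoters of GRCm38.p6 matched 8 of the 10 genes, with 3 starts each for Rtn1 and Rtn4, and below are the 250 bases before the outermost start of each reticulon, with GC boxes (GGGCGG) and CCAAT boxes (CCAAT), searched on both strands, in capitals. The window of Rtn1 is chr12:72409055-72409304 on the minus strand, that of Rtn3 chr19:7483292-7483541 on the minus strand and that of Rtn4 chr11:29692648-29692897 on the plus strand, each outside the annotated gene.
Rtn1: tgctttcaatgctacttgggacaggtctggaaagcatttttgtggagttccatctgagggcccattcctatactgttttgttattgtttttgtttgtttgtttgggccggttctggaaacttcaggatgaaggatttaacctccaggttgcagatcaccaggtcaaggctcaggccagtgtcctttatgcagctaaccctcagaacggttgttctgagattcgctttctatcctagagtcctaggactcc
Rtn3: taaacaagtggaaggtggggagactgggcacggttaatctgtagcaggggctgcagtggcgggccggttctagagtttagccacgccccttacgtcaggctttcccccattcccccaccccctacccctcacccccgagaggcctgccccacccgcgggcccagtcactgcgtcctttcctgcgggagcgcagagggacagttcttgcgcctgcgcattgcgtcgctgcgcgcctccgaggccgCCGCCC
Rtn4: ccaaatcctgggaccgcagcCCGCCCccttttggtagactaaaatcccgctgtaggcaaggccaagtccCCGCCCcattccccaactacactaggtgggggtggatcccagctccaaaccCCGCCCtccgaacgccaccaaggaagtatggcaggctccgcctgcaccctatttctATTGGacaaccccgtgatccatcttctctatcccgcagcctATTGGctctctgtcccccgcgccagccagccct
The Rtn4 window held 3 GC boxes, 2 CCAAT boxes and 12 CpG dinucleotides, the Rtn3 window 1 GC box, 0 CCAAT boxes and 20 CpG dinucleotides, and the Rtn1 window 0 of both boxes and 3 CpG dinucleotides. Among all promoters of this length (32851) a share of 32.7% held a GC box and 33.8% a CCAAT box, and the median number of CpG dinucleotides was 6. An inner start of Rtn1 had a window with 35 CpG dinucleotides, and the arrays do not tell which start was in use. The UPRE motif (TGACGTGG, both strands) was found in 0 of the 12 windows of these genes and in 0.563% of all promoters.

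Deposited values are log2 levels, and a probe set was tested when it lay above log2 4 on at least 3 arrays, which kept 23 of the 25. Of these 23, 4 rose and 7 fell in old cells at an adjusted p under 0.05 in limma, a linear model fitted over all 19858 kept probe sets. That is 47.8% called, where 36.6% of all kept probe sets were called, 20.1% higher and 16.5% lower. By the brightest kept probe set of each gene, Atl1 and Atl3 rose, Rtn1, Rtn4, Reep1 and Reep2 fell, and Rtn3, Reep5 and Ckap4 did not pass, while 40.6% of 10050 genes were called in the same way, 22.0% higher and 18.5% lower. The median change of the 9 genes was -0.13 (log2), against 0.01 over all genes, and their median size of change was 0.38 against 0.23. Rtn1, Reep1 and Atl3 kept their calls under all 14 alternatives, and the calls of Rtn4 and Atl1 were each lost under 6. Reep2 kept its call under the 13 that could be run for it, but a filter of log2 5 left it untested. Among the calls counted above, Reep2 passed the filter through its young arrays alone and the Atl3 probe set 1424499_s_at through its old arrays alone. The filter thus favoured the direction of these calls.

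**Figure D1:**
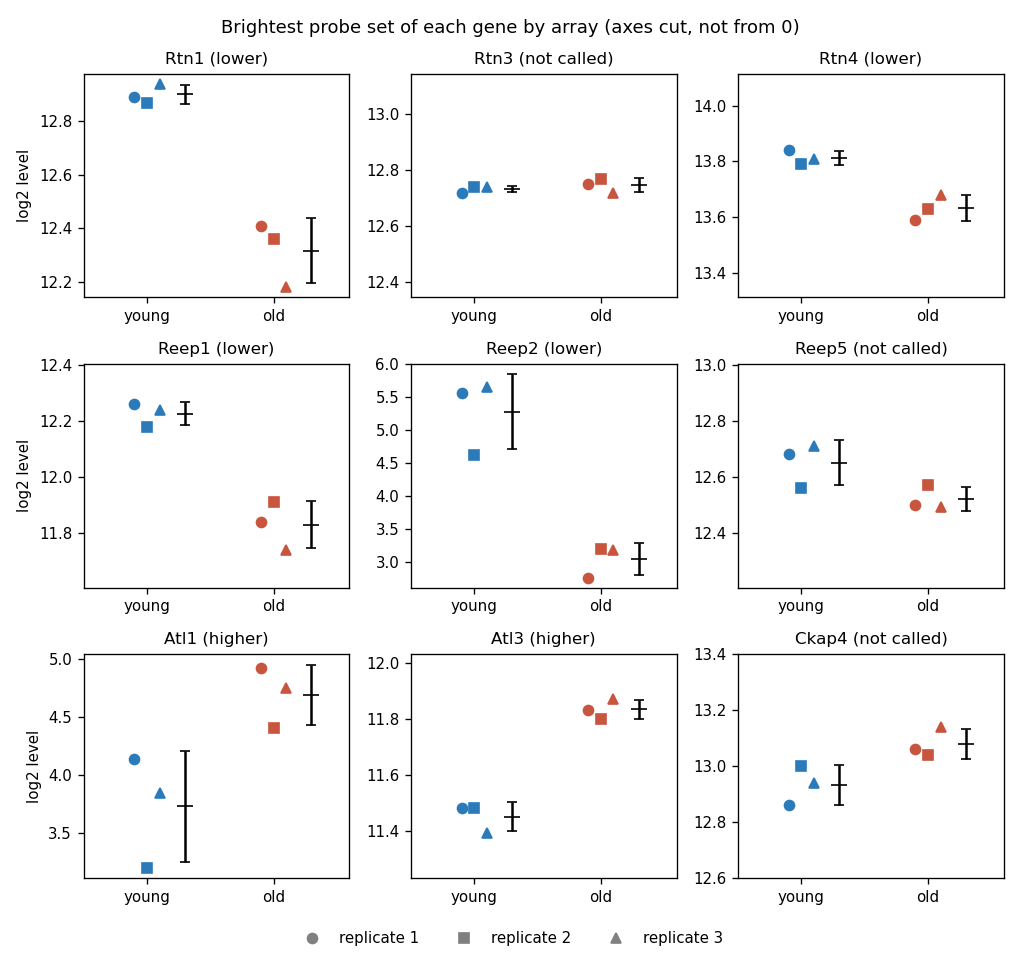
Log2 level of the brightest kept probe set of each of the 9 genes on the 3 young (blue) and 3 old (red) arrays, 1 symbol per replicate, with the group mean and SD in black; each vertical axis has its own range and does not start at 0. Rtn1, Rtn4, Reep1 and Reep2 have all old arrays under all young arrays, and Atl1 and Atl3 have them above. Ckap4, which was not called, also has them above, by 0.03. Of all kept probe sets 55.3% had ages that did not overlap.

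Markers were used to check the label of neural stem cells: of 10 listed, 8 were kept, of which 1 rose and 1 fell. Sox2, Vim and Slc1a3 were above log2 13 on every array and did not pass, Nes fell by 0.46 (adjusted p = 0.00746 in limma) from levels above log2 12, and Prom1 lay under the filter. Msi1, an RNA-binding protein of neural stem cells, rose by 0.52 (adjusted p = 0.00712 in limma). Of 12 neuron and neuroblast markers, 7 were kept, of which 5 fell and 0 rose, and their mean level over all 12 was 7.08 to 7.34 on young and 6.08 to 6.15 on old arrays (log2). Tubb3, the neuronal tubulin, went from a range of 9.30 to 9.62 to a range of 3.46 to 4.06. Also called lower were Elavl3 (-3.17), Snap25 (-1.13), Elavl4 (-0.87) and Sox11 (-0.33), of which Snap25 passed the filter through its young arrays alone. Dcx, under the filter, read 5.36, 5.03 and 3.17 on young arrays and 2.14 on all old ones. Stmn2, Rbfox3 and Nefl were at the lowest value, log2 2.14, on all 6 arrays. Map2 (adjusted p = 0.0857 in limma) and Gap43 (adjusted p = 0.951 in limma) did not pass. Of 8 astrocyte markers 5 rose and 1 fell, with a mean level of 8.45 to 8.88 on young and 9.65 to 10.13 on old arrays. Of 9 oligodendrocyte lineage markers 5 were kept, of which 2 fell, and of 6 ependymal markers 4 were kept, of which 2 rose and 1 fell. Of the kept genes, 25% of the stem cell, 71.4% of the neuron and 75% of the astrocyte markers were called. Among oligodendrocyte markers it was 40% and among ependymal ones 75%, where 40.6% of all genes were called. None of 8 microglial and 10 endothelial and mural markers passed the filter, with mean levels of at most 2.21. Some of these marker levels differ between the ages alongside the changes below, while others, such as Sox2, Vim, Slc1a3 and Gap43, were not called. The part of the marker shifts in the changes was not tested. In bulk RNA, fewer cells of a type and less RNA per cell cannot be told apart. The 18 hybridisation controls were all lower on every old array, by a mean of -0.96 (log2), and the 3' minus 5' difference of the actin control probe sets, a sign of RNA quality, was 0.569 to 0.654 on young and 0.668 to 0.731 on old arrays (log2), with no overlap. The part of either in the changes was not tested.

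Among the reticulons, Rtn1 fell, Rtn4 fell at 3 of its 4 kept probe sets and Rtn3 did not pass at either of its 2. Rtn1, a reticulon best known from neurons and neuroendocrine cells, had log2 levels of 12.89, 12.87 and 12.94 on the young arrays and 12.41, 12.36 and 12.18 on the old arrays (1429761_at). The lowest young array lay 0.46 above the highest old array, where the young arrays spanned 0.067 and the old arrays 0.23. The change was -0.58 ± 0.074 (log2, SE, n = 3 and 3), or 1.5-fold lower (adjusted p = 0.00339 in limma), and 23.7% of kept probe sets changed by more.

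Rtn3, a broadly expressed reticulon that also serves as a receptor for the autophagy of ER tubules, was nearly flat. Its brightest probe set (1418101_a_at) gave 12.72, 12.74 and 12.74 in young and 12.75, 12.77 and 12.72 in old cells, and the ages overlapped. The change was 0.01 with a 95% interval from -0.09 to 0.12 (adjusted p = 0.803 in limma). Its other probe set (1425539_a_at) gave -0.07 with an interval from -0.21 to 0.07 (adjusted p = 0.372 in limma), and the ages overlapped here too.

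Rtn4 was read by 5 probe sets, of which 4 were kept. At each of these 4 the old arrays all lay under the young arrays, where 25.9% of all kept probe sets had this order. At 1439650_at, under the filter and near the lowest value, the gap was only 0.04. The brightest (1452649_at) gave 13.84, 13.79 and 13.81 in young and 13.59, 13.63 and 13.68 in old cells. This is a change of only -0.19 ± 0.047 (log2, SE, n = 3 and 3, adjusted p = 0.0304 in limma). The call was lost without young replicate 1 or 3, or any old replicate (adjusted p of 0.0554 to 0.0945 in limma). With 1 array left out the change stayed at -0.21 to -0.16. The calls over all kept probe sets then also fell, from 7268 to between 5010 and 6838. The Rtn4 call was also lost with the replicate number as a block (adjusted p = 0.0933 in limma). The next brightest (1437224_at) gave 12.20, 12.24 and 12.33 in young and 11.59, 11.54 and 11.55 in old cells. Here the change was -0.70 ± 0.052, or 1.62-fold lower (adjusted p = 0.00060 in limma), and it kept its call under all alternatives run. A further one (1421116_a_at) changed by -0.42 ± 0.070 (adjusted p = 0.00794 in limma). Rtn4 is transcribed from several starts into long and short forms that share their 3' end, and which of them each probe set reads was not tested.

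At the 2 dim probe sets of Rtn4, young replicate 2 lay far above every other array. At 1435284_at the young arrays read 6.52, 8.91 and 7.18 and the old arrays 5.66, 5.63 and 5.63, a change of -1.89 that did not pass (adjusted p = 0.0606 in limma). Young replicate 2 was the high array, and without it the change was -1.21 with adjusted p = 0.0144 in limma, so that it passed. It also passed without young replicate 1 (-2.40, adjusted p = 0.0318 in limma). At 1439650_at, which lay under the filter, the same array read 4.86 while the other 5 read between 2.14 and 2.30. Young replicate 2 lay at least 1.5 (log2) above both other young arrays at 304 of the 19858 kept probe sets, against 5 to 9 for each of the other 5 arrays within its age, and 1435284_at was the 1 member among them.

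**Figure D2:**
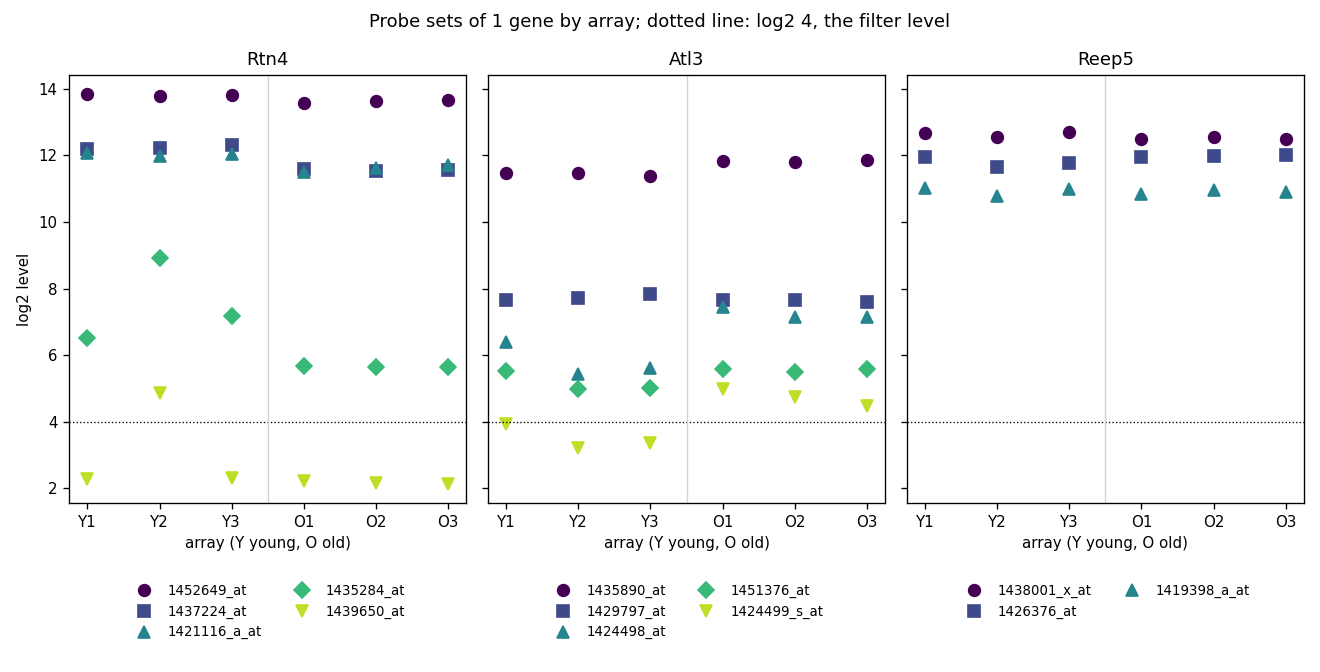
Log2 levels of all probe sets of Rtn4, Atl3 and Reep5 on each young (Y1 to Y3) and old (O1 to O3) array; the dotted line marks log2 4, the filter level. The 2 dim probe sets of Rtn4 peak at young replicate 2 (8.91 and 4.86), 3 of the 5 probe sets of Atl3 were called higher in old cells, and the 3 of Reep5 had changes of -0.13, 0.19 and -0.04, none called.

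In the REEP family, Reep1 and Reep2 fell while no probe set of Reep5 passed. Reep1, a tubule-shaping protein that also binds microtubules, gave 12.26, 12.18 and 12.24 in young and 11.84, 11.91 and 11.74 in old cells at its brightest probe set (1449662_at). The change was -0.40 ± 0.063 (log2, SE, n = 3 and 3; adjusted p = 0.00657 in limma). Its other probe set (1433509_s_at) had -0.50 ± 0.074 (adjusted p = 0.00522 in limma), and at both the highest old array lay at least 0.26 under the lowest young one.

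Reep2, a close relative of Reep1 that is mostly described in neurons, was dim. Its 1 probe set (1424386_at) gave 5.57, 4.63 and 5.65 in young and 2.77, 3.21 and 3.18 in old cells. All old arrays lay under log2 4, the level that stands in for background here, so Reep2 was at least 2.43-fold lower, and the fitted change of -2.23 ± 0.31 (adjusted p = 0.00423 in limma) has an uncertain size. Reep2 passed the filter through its young arrays alone.

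Reep5, the broadly expressed member of the family that shapes tubules together with the reticulons, had 3 probe sets that went different ways. The brightest (1438001_x_at) gave 12.68, 12.56 and 12.71 in young and 12.50, 12.57 and 12.49 in old cells, a change of -0.13 with a 95% interval from -0.28 to 0.02 (adjusted p = 0.144 in limma). The second (1426376_at) gave 11.94, 11.65 and 11.76 against 11.96 and 11.97 on old replicates 1 and 2 with old replicate 3 within 0.037 of the lower, a change of 0.19 with an interval from -0.02 to 0.40 (adjusted p = 0.13 in limma), which passed without young replicate 1 (0.27, adjusted p = 0.03 in limma). The third (1419398_a_at) changed by -0.04 (adjusted p = 0.712 in limma). The ages overlapped at the first and the third of these, and at the second the old arrays lay above the young ones by 0.02.

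Both atlastins rose. Atl3, the broadly expressed atlastin, had 11.48, 11.48 and 11.39 in young and 11.83, 11.80 and 11.87 in old cells at its brightest probe set (1435890_at), with no overlap. The change was 0.38 ± 0.050 (log2, SE, n = 3 and 3), or 1.31-fold higher (adjusted p = 0.00350 in limma). At 1424498_at the levels were 6.40, 5.43 and 5.62 against 7.45, 7.14 and 7.14, a change of 1.43 ± 0.27 (adjusted p = 0.0121 in limma). At 1424499_s_at all young arrays lay under log2 4 and old cells averaged 4.74, which is at least 1.67-fold higher (adjusted p = 0.0117 in limma), and this probe set passed the filter through its old arrays alone. The calls at these last 2 were lost without the filter (adjusted p = 0.0613 and 0.0593 in limma).

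Not every Atl3 probe set rose. At 1451376_at the change was 0.37 with a 95% interval from -0.03 to 0.77 (adjusted p = 0.124 in limma), and it passed without young replicate 1 (0.55, adjusted p = 0.00467 in limma). At 1429797_at, with 7.65, 7.73 and 7.83 against 7.65, 7.67 and 7.59, the change was -0.10 (adjusted p = 0.263 in limma).

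Atl1, the atlastin enriched in neurons, was near the filter level. Its kept probe set (1428260_at) gave 4.14, 3.20 and 3.85 in young and 4.92, 4.41 and 4.75 in old cells. Of the young arrays only replicate 1 lay above log2 4, so this probe set met the filter through its old arrays, which favoured a rise. The change was 0.96 ± 0.27 (log2, SE, n = 3 and 3; adjusted p = 0.0419 in limma). The mean of the old arrays was 1.47-fold above the highest young array, and the lowest old array lay only 0.27 (log2) above it. The call was lost without the filter (adjusted p = 0.158 in limma), with quantile normalization (adjusted p = 0.0685 in limma), and without young replicate 3 or any of the old replicates (adjusted p of 0.0630 to 0.119). The other probe set (1452711_at) read 2.23 to 2.29 on all 6 arrays and was not tested.

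Ckap4, the spacer of ER sheets, was slightly higher in old cells without passing. Its brightest probe set (1426754_x_at) gave 12.86, 13.00 and 12.94 in young and 13.06, 13.04 and 13.14 in old cells. The change was 0.14 with a 95% interval from -0.01 to 0.29 (adjusted p = 0.116 in limma), and 66.0% of kept probe sets changed by more. The other 3 probe sets had changes of 0.12 to 0.13, with adjusted p of 0.117 to 0.374 in limma, and the dim one among them (1426755_at) had 0.03 without old replicate 3. At 3 of the 4 the old arrays all lay above the young ones, by 0.02 to 0.04. Over all kept member probe sets the ages did not overlap at 16 of 23, 8 in each direction, where 55.3% of all kept probe sets did not overlap, 29.4% higher and 25.9% lower.

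**Figure D3:**
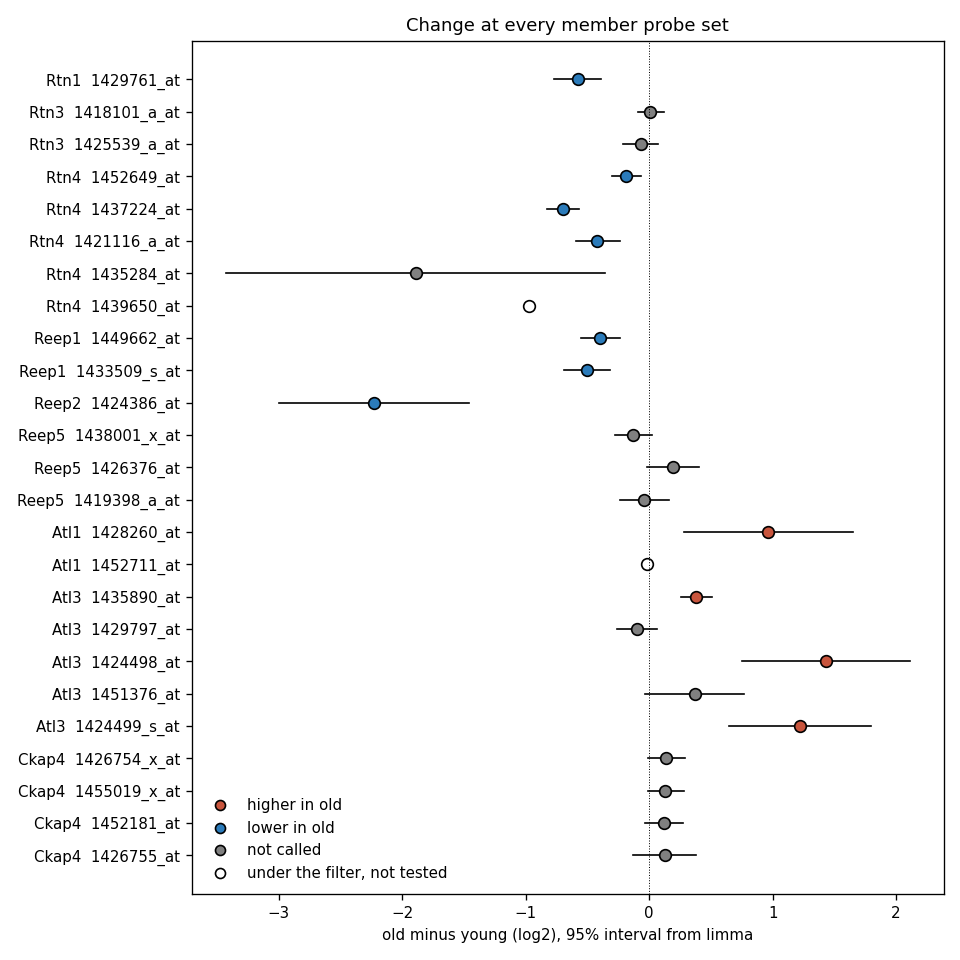
Change from young to old cells (log2) at each of the 25 probe sets with its 95% interval from limma; red marks those called higher, blue lower, gray not called and open symbols those under the filter. The 4 called higher belong to Atl1 and Atl3 and the 7 called lower to Rtn1, Rtn4, Reep1 and Reep2.

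Paralogs were then compared with each other by their changes, taking the difference of both log2 levels on each array. Rtn1 changed by -0.60 ± 0.061 relative to Rtn3 (log2, SE, n = 3 and 3), and the difference ran from 0.13 to 0.20 on young and from -0.54 to -0.34 on old arrays. Reep1 changed by -0.27 ± 0.037 relative to Reep5. Both pairs with Reep2 rest on old levels under log2 4 and on a gene that passed the filter through its young arrays, so they are not read here. Of the other 5 pairs, 4 had ages that did not overlap, each with p = 0.1 in a two-sided exact permutation test, which cannot go lower with 3 arrays an age, and 0.117 after Benjamini-Hochberg adjustment over the 7 pairs. The share over other gene pairs was not computed, and 55.3% of all kept probe sets taken singly did not overlap. The reticulon pairs reuse the same probe sets and are not separate observations, so this count is not read as a result about paralogs. For Atl1 against Atl3 the ages overlapped (0.58 ± 0.32, exact permutation p = 0.2). Rtn1 changed by -0.40 ± 0.098 relative to Rtn4 at their brightest probe sets, but by 0.22 relative to the mean of the kept Rtn4 probe sets. That mean includes the dim 1435284_at (-1.89, not called). The order of the Rtn1 and Rtn4 changes thus turns with the choice of probe set.

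**Figure D4:**
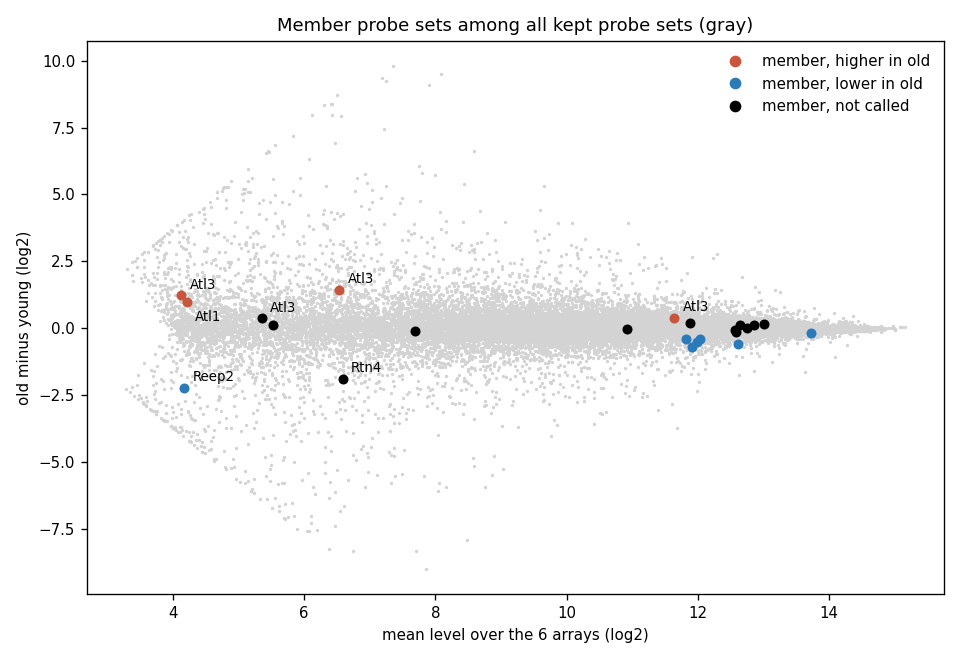
Mean level over the 6 arrays against the change from young to old cells, both log2, for all 19858 kept probe sets (gray) and the 23 kept member probe sets (colored by call). The dim probe sets of Reep2 (-2.23), Rtn4 (-1.89) and Atl3 (1.43) lie far from 0, as do many gray points at low levels, and the bright members lie within 0.70 of 0.

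Other genes that act on ER shape split in direction. Of 19 listed, 17 were kept, of which 4 rose and 2 fell, or 35.3% against 40.6% of all genes. Rtn2, the reticulon best known from muscle and axons, had 7.65 ± 0.57 in young and 5.07 ± 0.42 in old cells (log2, SD, n = 3) and so fell by 2.58 (adjusted p = 0.00407 in limma). Lnpk, the lunapark protein of tubule junctions, fell by 0.43 (adjusted p = 0.0161 in limma). The Rab18 regulators Rab3gap1 and Tbc1d20 rose by 0.37 and 0.32, while Rab3gap2, the partner of Rab3gap1, had -0.36 (adjusted p = 0.0552 in limma) and fell by 0.37 at its second probe set (adjusted p = 0.0218 in limma). Also higher were the ribosome-binding sheet protein Rrbp1 by 0.19 and Tmcc1 by 0.42. Among the further REEP genes, Reep3 had -0.13 at its brightest probe set (adjusted p = 0.14 in limma), and its other 4 had -0.15 to -0.48, of which 3 fell. Reep4 had -0.01 and Reep6 0.38, and neither passed. Without young replicate 3, old replicate 2 or old replicate 3, and likewise without the filter, the number called of these 17 was 2 to 3. Rtn2 and Tbc1d20 kept their calls in the alternatives run. Those of Lnpk, Rab3gap1, Rrbp1 and Tmcc1 were each lost without young replicate 3, old replicate 2 or old replicate 3. Rrbp1 and Tmcc1 also lost theirs without old replicate 1, Rab3gap1 without young replicate 2 and Rrbp1 without young replicate 1.

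Partners of the reticulons went both ways. Of 10 listed, 7 were kept, of which 2 rose and 1 fell, or 42.9% against 40.6% of all genes. Rtn4rl1, a homolog of the Nogo receptor, had 10.80 ± 0.090 in young and 11.87 ± 0.16 in old cells (log2, SD, n = 3) and so rose by 1.07 (adjusted p = 0.00116 in limma), and by 1.36 at its second probe set. Rtn4ip1, a mitochondrial partner of Rtn4, rose by 0.70 (adjusted p = 0.000807 in limma), and by 1.12 at its second probe set. S1pr2, a receptor for a fragment of Nogo-A, fell by 0.45 (adjusted p = 0.0174 in limma), a call lost without young replicate 3, old replicate 1 or old replicate 2 (adjusted p of 0.0533 to 0.0637) and without the filter (adjusted p = 0.0664 in limma). The Nogo receptor Rtn4r, Rtn4rl2 and the co-receptor Ngfr were at the lowest value on all 6 arrays, and the co-receptor Lingo1 had 0.26 (adjusted p = 0.222 in limma).

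Receptors that deliver ER to autophagy had 3 of 7 genes rising and 0 falling at an adjusted p under 0.05 in limma (median 0.22), or 42.9% against 40.6% of all genes. Tex264 rose by 0.79, Ccpg1 by 0.53 and Sec62 by 0.22, the last a call lost without old replicate 1 or 2 (adjusted p of 0.0521 and 0.0569). The reticulon-like receptor Retreg1 had -0.13 and did not pass (adjusted p = 0.695 in limma). Of 11 tethers of ER contact sites 10 were kept, of which 3 rose and 0 fell in limma, or 30% against 40.6% of all genes. Pdzd8 rose by 0.52, Mfn2 by 0.26 and Stim2 by 0.18. The second probe set of Stim2 had 0.09 and did not pass (adjusted p = 0.582 in limma). Mfn2 lost its call without old replicate 2 or 3, which left 1 gene called, and Stim2 lost it without any 1 of the 6 arrays (adjusted p of 0.0564 to 0.137). Of 15 kept genes of the translocon and of glycosylation, 1 rose (Ssr4, 0.20) and 1 fell (Sec63, -0.34), with a median of 0.09, which is 13.3% called against 40.6% of all genes. Without any 1 array other than young replicate 1 the call of Ssr4 was lost and 1 gene was called. Canx (0.01) and Rpn1 (0.03), bright ER proteins of this list, did not pass at their brightest probe sets. The second probe set of Canx rose by 0.25 (adjusted p = 0.0364 in limma). Its dimmest had 0.08 and did not pass (adjusted p = 0.426 in limma).

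**Figure D5:**
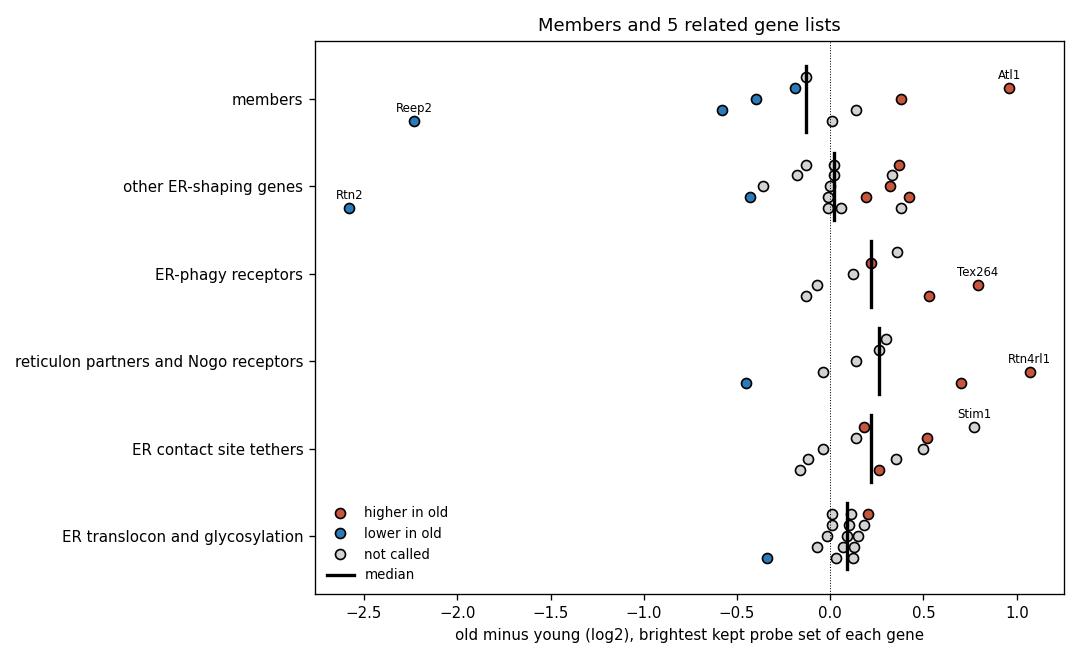
Change from young to old cells (log2) for the brightest kept probe set of each member gene and of each gene in 5 related lists; red marks genes called higher, blue lower, gray not called, and the bar is the list's median. The medians run from -0.13 for the members to 0.26 for the reticulon partners, and Rtn2 and Reep2 lie farthest from 0.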

How the data were processed

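Values are log2 levels of each probe set as the authors deposited them. The submitters' processing notes name GCRMA, with version and genome build both not given in the sources used here. GCRMA gathers dim probe sets near 1 lowest value (log2 2.14, held by 38.3 to 40.3% of probe sets per array), so replicate spread is understated there, and no detection calls were used. That the scale is log2 was judged by the range of the values. Per the labels' protocols RNA was labelled with the NuGEN Encore Biotin module.

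Gene names came from the platform annotation: besides 64 controls, it gives 1 symbol for 34945 probe sets and several for 932, and 9160 are unnamed here; of the Entrez identifiers 99.42% matched RefSeq genes of GRCm38.p6. Old and young arrays were compared with limma 3.58.1 in R 4.3.3 (lmFit, eBayes, two-sided, Benjamini-Hochberg over all 19858 kept probe sets, 4 residual and 1.471 prior degrees of freedom), after a filter of log2 4 on at least 3 of 6 arrays. Where every array of 1 age lies under log2 4, the fold is a lower bound against that level. Where only the mean does, the fold is that of the other age's mean against the highest array of that age, which is not a lower bound over single arrays. The test was tried on simulated data with independent normal noise and few changed probe sets, a setting unlike these arrays. The trial therefore does not check the calls reported here. Paralog pairs were compared by exact permutation tests (scipy 1.17.1), and figures drawn with matplotlib 3.10.9. Alternatives were other filters, quantile normalization, median centring, the replicate number as a block, trend and robust options, array weights, leaving out each array, and the mean of a gene's probe sets. All 9 measured members were named with every probe set. Of each list every called gene was named where at most 6 were called in a direction, otherwise the 4 with the smallest p. From the marker lists Sox2, Nes, Vim, Slc1a3, Tubb3, Dcx, Stmn2 and Map2 were named, which check the cell label. Gfap, Olig2, Aif1, Pecam1 and Foxj1 count in their lists. Msi1, Prom1, Elavl3, Snap25, Elavl4, Sox11, Rbfox3, Nefl and Gap43, and genes of the lists that were not called, were named after their values were seen. The members and lists were chosen with earlier results of these data known.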

Additional observations from a re-analysis of the deposited data

How the results depend on the processing

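All 9 member genes kept their direction in the alternatives run, with 1 exception: on the mean of a gene's probe sets Rtn3 (-0.03) and Reep5 (0.01) turned without passing, as did the difference between Rtn1 and Rtn4 (0.22). On the mean of its kept probe sets Rtn4 had -0.80. That mean includes -1.89 at the dim 1435284_at, which was not called and where young replicate 2 was the high array. Leaving out 1 array gave -0.11 to 0.00 at the third Reep5 probe set, the highest without young replicate 1. With a filter of log2 5, Reep2 and Atl1 were not tested. The Atl1 call was lost without the filter (0.96) and with quantile normalization (1.02), and Ckap4 passed with trend and robust options (0.14).

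Leaving out 1 array gave 9 to 13 member probe sets called, 4 to 6 member genes and 5010 to 6838 probe sets in all. It gave -0.21 to -0.16 for Rtn4 and 0.70 to 1.17 for Atl1, and calls of 2 to 6 other ER-shaping genes, 1 to 4 tethers and 1 to 2 translocon genes. Without the filter 3 ER-shaping genes and 8 member probe sets were called. With trend and robust options 5 reticulon partners, 5 tethers and 6 translocon genes were called, and with the mean of probe sets 1 translocon gene.

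Same-numbered arrays did not deviate together (r = -0.16, -0.108 and 0.157 across probe sets, and 2 of 6 arrays correlated best with their own number). With the replicate number as a block 5600 probe sets and 10 of 23 member probe sets were called, Rtn4 (-0.19) was lost with adjusted p = 0.0933 in limma, and 1 tether and 1 translocon gene were called.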
